A study of Rattus norvegicus with 44 samples.

Results

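Integrins and laminins are the receptors and the ligands of cell attachment to the basement membrane, and their genes were followed in cultured neonatal rat ovaries given 1 of 9 growth factors. The genes were chosen by name: every probe set annotated to a single integrin alpha or beta chain or a single laminin alpha, beta or gamma chain. That gave 25 genes of 27342 probe sets, 18 integrin chains and 7 laminin chains, each with 1 probe set. Another 12 rat genes with such names, Itga3, Itga8, Itga9, Itgav, Itgb3, Lama2, Lama4 and Lamb1 among them, had no probe set of their own under this rule and were not analysed here.

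The tissue was the whole ovary of female Sprague-Dawley rats, removed at 4 days of age and kept in organ culture for 48 h with 50 ng/ml of a single growth factor or with none. In the first set of 38 arrays, 3 samples each received AMH (human), BMP4 (human), FGF2 (rat), FGF7 (human), GDNF (rat), KITLG (mouse), LIF (rat) or PDGFab (the rat AB heterodimer of PDGF), and 14 untreated samples served as controls to all 8. In the second set, 3 samples received CTGF (human) and had 3 untreated controls of their own. Each sample was the pooled RNA of 2 to 3 ovaries from 1 culture well, taken from different pups of a litter, so that the spread given is between wells. Levels are log2 expression values from Affymetrix Rat Gene arrays, and the sets were preprocessed apart, so each growth factor was compared within its own set and the levels of different probe sets were not set against each other.

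An integrin is a pair of an alpha and a beta chain that spans the cell membrane, binds collagens, laminins, fibronectin or other proteins outside the cell and couples them to the actin cytoskeleton. A laminin is a cross-shaped trimer of an alpha, a beta and a gamma chain, and laminins form the sheet on which basement membranes are built. In the ovary a basement membrane surrounds each follicle and separates its granulosa cells from the stroma, and it is rebuilt as a follicle begins to grow. Itgb1 encodes the beta chain shared by the collagen, fibronectin and most laminin receptors, Itgb2 the beta chain of leukocytes, and Lamc1 the gamma chain of most laminins.

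Sample 1 of FGF2, KITLG, LIF and PDGFab and control 1 stood apart from the other samples of their groups in a shared way. This is described after the comparisons. For many differences of the 25 genes with these growth factors, the value without sample 1 is given too. Such a value leaves out sample 1 of the treatment only and keeps control 1, unless both are said to be left out. For genes outside the 25, no difference without sample 1 is given. The arrays' median levels lay between 5.93 and 6.01 in the first set and between 6.29 and 6.35 in the second, and arrays of a set correlated across probe sets at r = 0.964 to 0.997 and 0.986 to 0.998. Of the 25 genes, 10 had a mean below the median of all probe sets, 5.98, in the first set. These were Itga7, Itga10, Itga11, Itgad, Itgam, Itgb4, Itgb6, Itgb7, Lama3 and Lamb3. Markers of the ovary were measured at these log2 levels in the 14 controls of the first set: the mean over 4 of 7 listed oocyte genes was 8.68 to 10.05, and that over 5 of 6 listed pregranulosa cell genes was 8.69 to 9.71. In RNA of a whole ovary, fewer cells of a type and less RNA per cell cannot be told apart.

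With FGF2, Itga1 and Itgb5 rose, 2 of the 25 chain genes at an adjusted p under 0.05 (limma, Benjamini-Hochberg adjustment over all probe sets), where 0.94% of all probe sets were called in either direction and 0.753% were called higher. Itga1 encodes the alpha chain of a collagen receptor. Itgb5 encodes a beta chain that pairs with the alphav chain and binds vitronectin. No chain gene fell with FGF2 at that threshold, and over the 25 genes the median change was 0.05 (17 higher and 8 lower), against -0.01 over all probe sets.

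**Figure D1:**
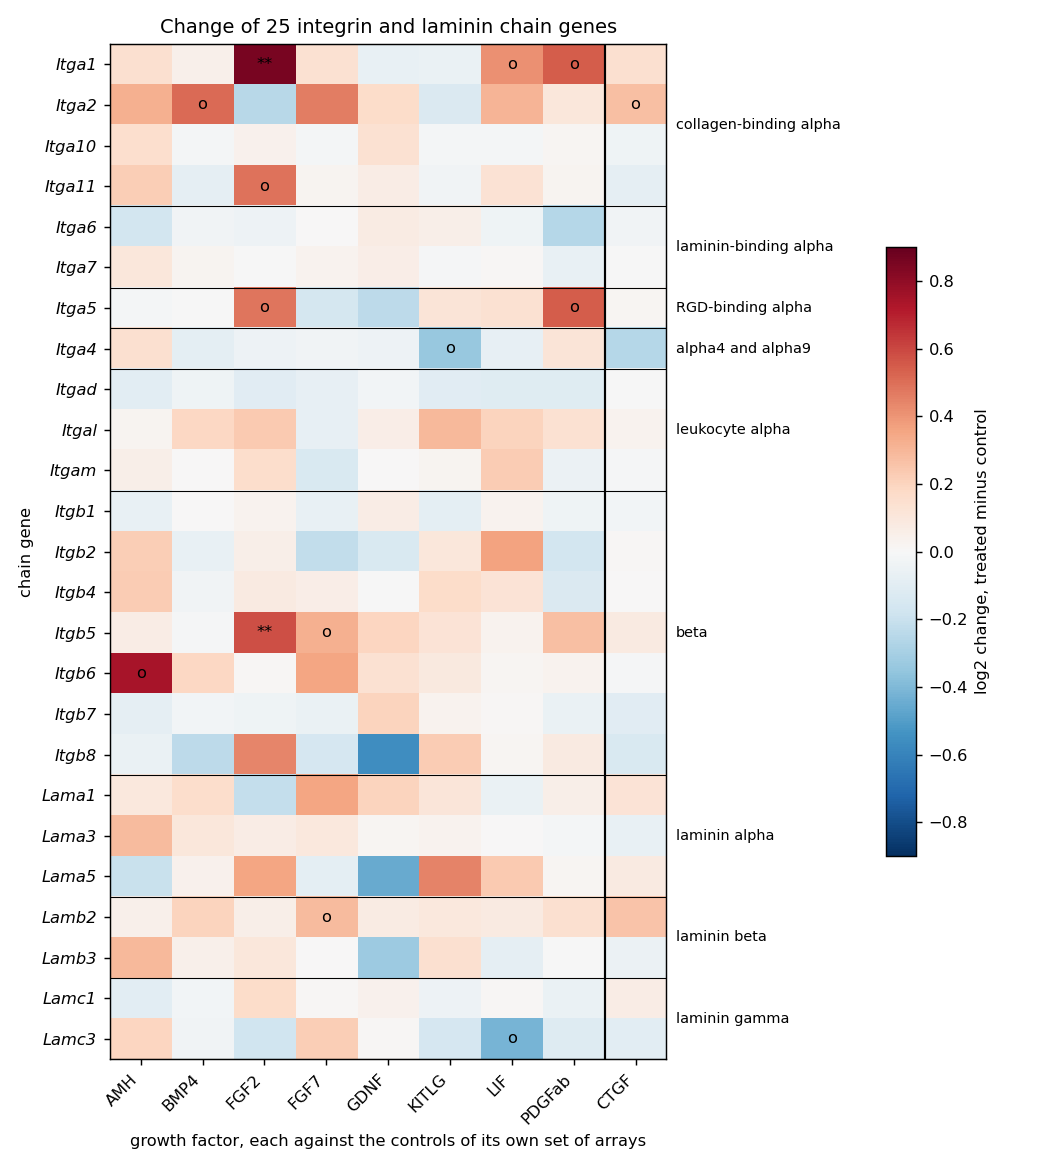
Log2 change (treated minus control, colour scale) of the 25 chain genes, by role from top to bottom, with each of 9 growth factors against the controls of its own set of arrays; the line before CTGF separates the sets. A double asterisk marks an adjusted p under 0.05 (limma) and a circle marks a gene that met the study's looser criteria only. The darkest cell is Itga1 with FGF2, at 0.85.

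Itga1 measured 9.42, 8.39 and 8.37 in the FGF2 samples, against 7.58 at the lowest, 7.89 at the median and 8.19 at the highest in the 14 controls. All 3 FGF2 samples were above the highest control, and sample 1 was well above samples 2 and 3. Among all probe sets, 0.699% lay wholly above the controls in the same way, and Itga1 was the only chain gene of the first set that did so with any growth factor. The mean was 8.73 ± 0.60 (SD, n = 3) with FGF2 and 7.88 ± 0.17 (SD, n = 14) in controls, a difference of 0.85 (SE 0.16, limma adjusted p = 0.00343) and a ratio of linear means of 1.91. An exact two-sided permutation test over the 680 splits of 3 against 14 gave p = 0.00147, the smallest it can give.

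Itgb5 measured 10.25, 9.67 and 9.91 with FGF2, against 9.00, 9.40 and 9.76 at the lowest, median and highest control. Samples 1 and 3 were above every control, and sample 2 was inside the range of the controls. The means were 9.94 ± 0.29 (SD, n = 3) with FGF2 and 9.36 ± 0.22 (SD, n = 14) in controls, a difference of 0.58 (SE 0.13, limma adjusted p = 0.0152) and a ratio of 1.50. The exact permutation p was 0.00294.

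Both calls rested in part on FGF2 sample 1. Without it the difference was 0.50 for Itga1 (limma adjusted p = 0.226) and 0.43 for Itgb5 (0.292), and no chain gene was called. When control 1 and sample 1 of FGF2, KITLG, LIF and PDGFab were left out together, Itga1 rose by 0.53 (0.0461) and Itgb5 differed by 0.43 (0.312). Without FGF2 sample 3 the adjusted p of Itgb5 was 0.0551, in a limma fit of the FGF2 samples and the controls alone it was 0.121, and the test named in the study's methods gave adjusted p-values of 0.0948 for Itga1 and 0.167 for Itgb5.

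The stretch of DNA around the start of each of these genes, from 250 bases before the start to 50 after it, is shown because Itga1 and Itgb5 are the chain genes called. The sequences are from RefSeq (build GRCr8, minus strand in both), at chr2:48545234-48545533 for Itga1 and chr11:80449324-80449623 for Itgb5, with each CG step in capitals.
Itga1: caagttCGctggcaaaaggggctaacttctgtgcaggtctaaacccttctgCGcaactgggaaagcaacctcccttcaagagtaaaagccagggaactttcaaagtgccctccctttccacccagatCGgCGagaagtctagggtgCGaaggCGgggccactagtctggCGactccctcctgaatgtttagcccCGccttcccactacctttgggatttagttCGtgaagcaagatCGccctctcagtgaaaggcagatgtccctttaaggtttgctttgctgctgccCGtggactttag
Itgb5: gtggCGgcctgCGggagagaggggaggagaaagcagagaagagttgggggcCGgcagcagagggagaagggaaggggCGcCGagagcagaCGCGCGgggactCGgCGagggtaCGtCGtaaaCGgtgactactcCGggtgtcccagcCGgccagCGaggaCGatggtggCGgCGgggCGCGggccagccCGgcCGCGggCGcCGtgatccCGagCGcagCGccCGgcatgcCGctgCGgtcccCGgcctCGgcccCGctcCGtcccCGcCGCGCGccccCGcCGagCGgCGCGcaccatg
The window of Itga1 held 11 CG steps and 53.7% G or C, and 41.7% of all 27457 rat promoters in the table held at least as many CG steps. That of Itgb5 held 45 and 76.7%, and only 1.74% of promoters held at least as many. On either strand, neither window contained the AP-1 letters TGACTCA or TGAGTCA (in 4.53% of all promoters), the Ets letters CCGGAAG (9.22%), the cyclic AMP element TGACGTCA (1.91%), the GC box GGGCGG (34.9%) or the TATA box TATAAA (14.3%). The absence of these letters says nothing of whether a factor binds near the gene. Of the 25 genes, 18 had a promoter in the table.

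The study's own criteria were looser. A gene met them here with an unadjusted limma p of 0.05 or less, linear means that differed by 10 units or more, and a ratio of those means from 1.2 upward or from 0.83 downward. With FGF2 they were met by 4 chain genes, all higher, where 6.79% of all probe sets met them and 4.43% did so as higher. Beside Itga1 and Itgb5 these were Itga11, which encodes another collagen-binding alpha chain, and Itga5, the alpha chain of the main fibronectin receptor.

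Itga11 measured 5.75, 5.12 and 4.80 with FGF2, against 4.52 to 5.13 in the controls, with a median of 4.70. Sample 1 was above every control and the other 2 were inside their range. The difference of 0.49 had a limma adjusted p of 0.0597 and an exact permutation p of 0.0162, and without sample 1 it was 0.22 (adjusted p = 0.695). Without control 1, which held the highest Itga11 level of the controls, it was 0.52 (adjusted p = 0.0268), so that Itga11 was then called as well.

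Itga5 measured 9.29, 8.15 and 7.94 with FGF2 and 9.17, 8.16 and 8.23 with PDGFab, against 7.50, 7.90 and 8.98 at the lowest, median and highest control. Only sample 1 of either treatment was above the highest control, which was control 1. The differences were 0.48 with FGF2 and 0.54 with PDGFab (limma adjusted p = 0.368 for each), and without sample 1 of the treatment they were 0.07 and 0.22.

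**Figure D2:**
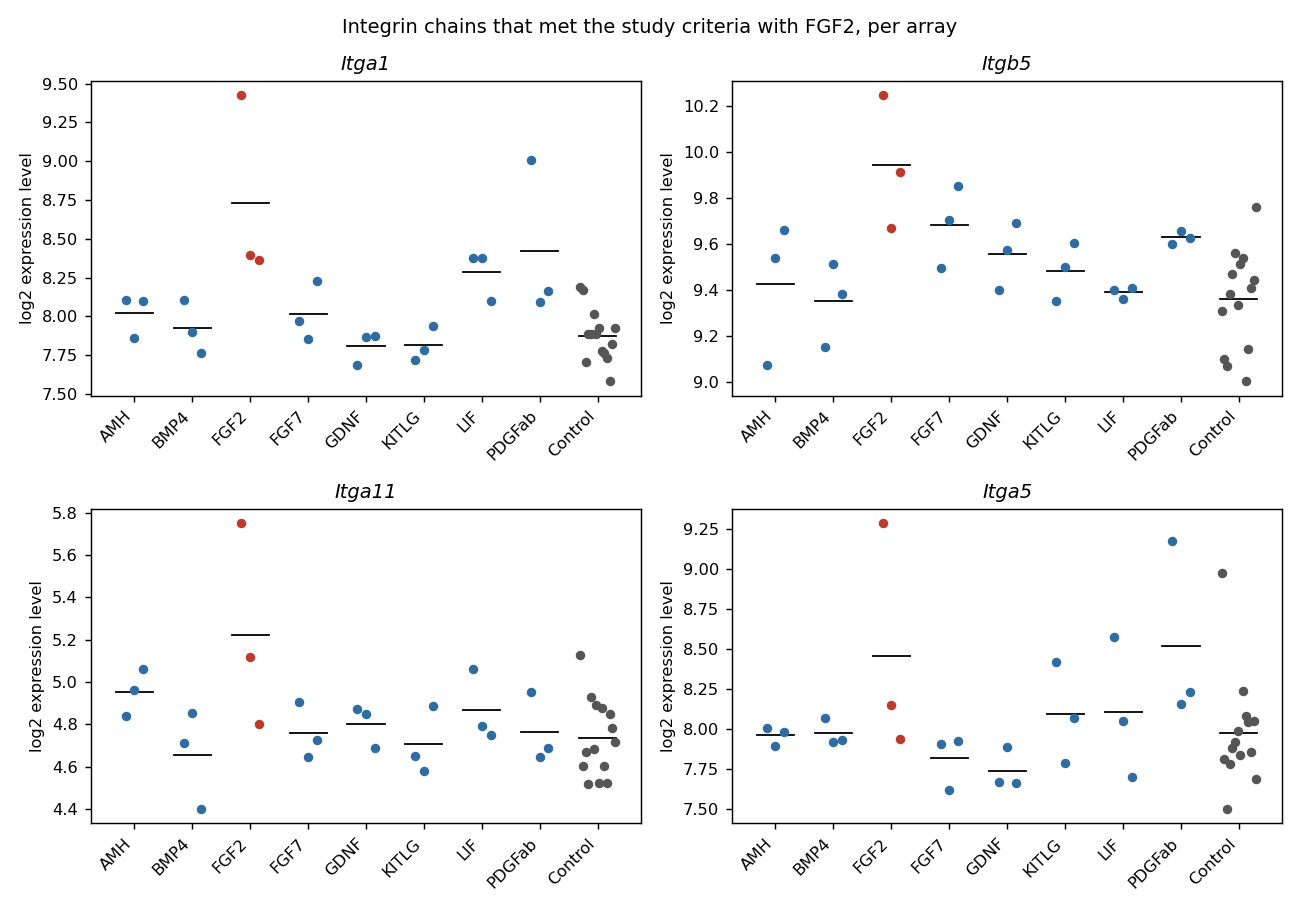
Log2 expression level (vertical axis) of Itga1, Itgb5, Itga11 and Itga5 on each array of the 8 growth factors and the controls (horizontal axis); red points are FGF2, blue points the other growth factors, grey points the 14 controls, and a bar is the group's mean. FGF2 sample 1 is the highest FGF2 point in all 4 panels, at 9.42 for Itga1 and 10.25 for Itgb5.

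With the other 8 growth factors no chain gene passed an adjusted p of 0.05, by limma or by the test named in the study's methods. The share of all probe sets called by limma there was 0% with AMH, 0.274% with BMP4, 0.0805% with FGF7, 1.89% with GDNF, 0.0439% with KITLG, 0.267% with LIF, 0.234% with PDGFab and 0% with CTGF. At an unadjusted limma p under 0.05 there were 2 chain genes with AMH (5.08% of all probe sets), 1 with BMP4 (8.97%), 2 with FGF7 (7.57%), 1 with GDNF (17.1%), 1 with KITLG (8.66%), 2 with LIF (7.25%), 3 with PDGFab (9.79%) and 2 with CTGF (3.12%). The 8 treatments of the first set share their 14 controls, so a control that lies high or low moves all of them together.

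Among the collagen-binding chains, Itga1 also met the study's criteria with PDGFab and LIF, and Itga2 with BMP4. Itga1 measured 9.01, 8.09 and 8.16 with PDGFab, where 5.33% of all probe sets met the criteria, and only sample 1 was above the controls. The difference was 0.54 (limma adjusted p = 0.123, exact permutation p = 0.00882), and 0.25 without sample 1. With LIF, where 3.82% of probe sets met the criteria, Itga1 measured 8.38, 8.38 and 8.10, samples 1 and 2 were above the highest control, and the difference was 0.41 (limma adjusted p = 0.458, exact permutation p = 0.00441). Without sample 1 it was 0.36 and did not meet the criteria.

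Itga2, the alpha chain of another collagen receptor, measured 7.49, 8.11 and 7.87 with BMP4, against 6.22, 7.44 and 7.74 at the lowest, median and highest control. Samples 2 and 3 were above every control, and the difference was 0.51 (limma adjusted p = 0.518), where 4.48% of all probe sets met the criteria. With FGF2, Itga2 measured 6.59, 7.12 and 7.50. Sample 1 was below every control but control 1, at 6.22, and the next control was at 7.10. The difference of -0.25 was -0.01 without FGF2 sample 1 and with control 1 kept. With LIF, Itga2 differed by 0.31 and did not meet the criteria. Without sample 1, but with control 1 still in, it differed by 0.66 (limma adjusted p = 1.00) and met them. Itga10, the remaining chain of this kind, lay between 4.41 and 5.06 on every array of the first set and met the criteria with no growth factor.

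The laminin-binding chains Itga6 and Itga7 met the criteria with none of the 9 growth factors. Itga6, which pairs with the beta1 or the beta4 chain, measured 9.28, 9.93 and 9.95 with PDGFab, inside the 9.23 to 10.36 of the controls. The difference was -0.26, and -0.03 without sample 1. Itga4, whose integrins bind fibronectin and the vascular adhesion molecule VCAM1, measured 6.25, 6.42 and 6.68 with KITLG, against 6.35, 6.79 and 7.33 at the lowest, median and highest control. Sample 1 was below every control, and the difference was -0.34 (limma adjusted p = 0.571), where 4.44% of all probe sets met the criteria. Without sample 1 it was -0.24 and did not meet them. The leukocyte alpha chains Itgad, Itgal and Itgam differed by -0.14 to 0.29 across the 9 comparisons and met the criteria in none.

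Of the beta chains other than Itgb5, Itgb6 met the criteria with AMH, where 2.15% of all probe sets did. Itgb6 pairs with the alphav chain and can activate latent TGF-beta. It measured 6.29, 4.70 and 4.58 with AMH, against 4.20, 4.45 and 4.72 at the lowest, median and highest control. Only sample 1 was above the controls. The difference was 0.74 (limma adjusted p = 0.540, exact permutation p = 0.0176), and without that sample it was 0.19. The same sample was the highest of AMH for Lama3 and Lamb3, which encode the alpha and beta chains of the laminin of epithelial anchoring sites, at 5.12 and 5.97. The first was above every control (4.31 to 4.66) and the second was not.

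Itgb5 met the criteria with FGF7 as well, where 4.16% of all probe sets did. It measured 9.50, 9.70 and 9.85 with FGF7, with sample 3 above every control, and 9.60, 9.66 and 9.63 with PDGFab, all inside the controls' range. The differences were 0.32 with FGF7 (limma adjusted p = 0.467) and 0.27 with PDGFab (0.478), where the ratio of 1.19 was under the criterion. With the remaining 5 growth factors of the first set Itgb5 differed by -0.01 to 0.20.

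With GDNF no chain gene met the criteria, which 5.99% of all probe sets met. The 3 values of Itgb8 were closer together with GDNF than with any other growth factor, 7.09, 7.07 and 7.12, against controls that ran from 6.84 to 8.61 with a median of 7.62. Itgb8, another alphav partner, differed by -0.56 (limma adjusted p = 0.299). Itgb7, a beta chain of lymphocytes at a dim level here, measured 4.22, 4.31 and 4.23 with GDNF, against 3.94, 4.03 and 4.29 at the lowest, median and highest control. That difference of 0.20 had a limma adjusted p of 0.117 and an exact permutation p of 0.00588. Itgb1, which pairs with most of the alpha chains here, differed by -0.09 to 0.07 with the 9 growth factors.

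The laminin chains were called with no growth factor. Lamb2, the beta chain of many mature basement membranes, met the criteria with FGF7, where it measured 9.48, 9.42 and 9.60, against 8.80, 9.19 and 9.61 at the lowest, median and highest control. All 3 were inside the controls' range, and the difference was 0.28 (limma adjusted p = 0.627). Lamc3, the third gamma chain, met them as lower with LIF, at 5.34, 5.61 and 6.44, against 5.79, 6.18 and 6.82 in controls. Samples 1 and 2 were below every control, sample 3 was above the control mean of 6.21, and the difference was -0.42 (limma adjusted p = 0.629). Without sample 1 it was -0.19 and did not meet the criteria.

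Lama5, the alpha chain of most adult basement membranes, spread over 7.35 to 9.16 in the controls. With no growth factor did it meet the criteria as applied here, with the limma p. It differed by 0.45 with KITLG (limma adjusted p = 0.671), or 0.17 without sample 1, and by -0.45 with GDNF (0.372). With AMH it differed by -0.20. Lamc1 differed by -0.09 to 0.17 and Lama1 by -0.21 to 0.35 over the 9 comparisons. The 0.17 of Lamc1 and the -0.21 of Lama1 were with FGF2, and without its sample 1 they were -0.0009 and 0.15. Over the 7 laminin chains the median change lay between -0.01 with PDGFab and 0.10 with FGF7.

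CTGF, a matrix-associated protein that binds integrins, was compared with its own 3 controls, where an exact permutation test of 3 against 3 cannot go below p = 0.10. Itga2 met the criteria, with 0.761% of all probe sets. It measured 8.07, 8.08 and 7.78 with CTGF, against 7.58, 7.77 and 7.77 in its controls, and the lowest CTGF sample was only just above the highest control. The difference was 0.27 (SE 0.11, limma adjusted p = 1.00, exact permutation p = 0.10). Lamb2 measured 10.07, 9.92 and 9.97 with CTGF, against 9.79, 9.69 and 9.72 in controls, again without overlap, and differed by 0.25 (limma adjusted p = 1.00). These were 2 of 25 genes wholly above their controls, where 3.65% of all probe sets were. Itga1 (8.73, 8.86 and 8.95 with CTGF, 8.55, 8.71 and 8.85 in controls) and Itgb5 (9.72, 9.96 and 9.78 with CTGF, 9.68, 9.77 and 9.76 in controls) overlapped their controls. In this set same-numbered samples varied together, and within these pairs Itga1 was higher with CTGF by 0.18, 0.15 and 0.10 and Itgb5 by 0.04, 0.19 and 0.02. They were 2 of 5 chain genes that were higher in all 3 pairs, as were 16.4% of all probe sets, and with the number as a block their limma adjusted p-values were 0.507 and 0.714. Itga2 (higher by 0.49, 0.31 and 0.01) and Lamb2 (by 0.28, 0.23 and 0.25) were also among the 5. Their limma adjusted p-values with the block were 0.442 and 0.396.

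A call with FGF2 and none with another growth factor does not show that they differ, so the 8 growth factors of the first set were also compared directly in 28 pairs for the 25 genes. One of these differences passed: Itga1 was higher with FGF2 than with GDNF (7.69, 7.87 and 7.87 with GDNF) by 0.92 (95% interval 0.51 to 1.33, limma adjusted p = 0.0117 over all probe sets of that contrast, of which 3.13% were called). Without FGF2 sample 1 that difference was 0.57 (adjusted p = 0.128). Itga1 was also 0.91 higher with FGF2 than with KITLG (0.50 to 1.32, adjusted p = 0.0938), which did not pass.

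Between FGF2 and the growth factors nearest to it no difference was shown, nor was one shown to be absent. Itga1 with FGF2 exceeded that with PDGFab by 0.31 (95% interval -0.10 to 0.72) and that with LIF by 0.44 (0.03 to 0.85), both with limma adjusted p = 1.00. Itgb5 with FGF2 exceeded that with FGF7 by 0.26 (-0.07 to 0.59) and that with PDGFab by 0.31 (-0.01 to 0.64), likewise with adjusted p = 1.00. In order of mean, Itga1 was 8.73 with FGF2, 8.42 with PDGFab, 8.29 with LIF, 8.02 with AMH and with FGF7, 7.92 with BMP4 and 7.81 with KITLG and with GDNF, beside 7.88 in controls.

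**Figure D3:**
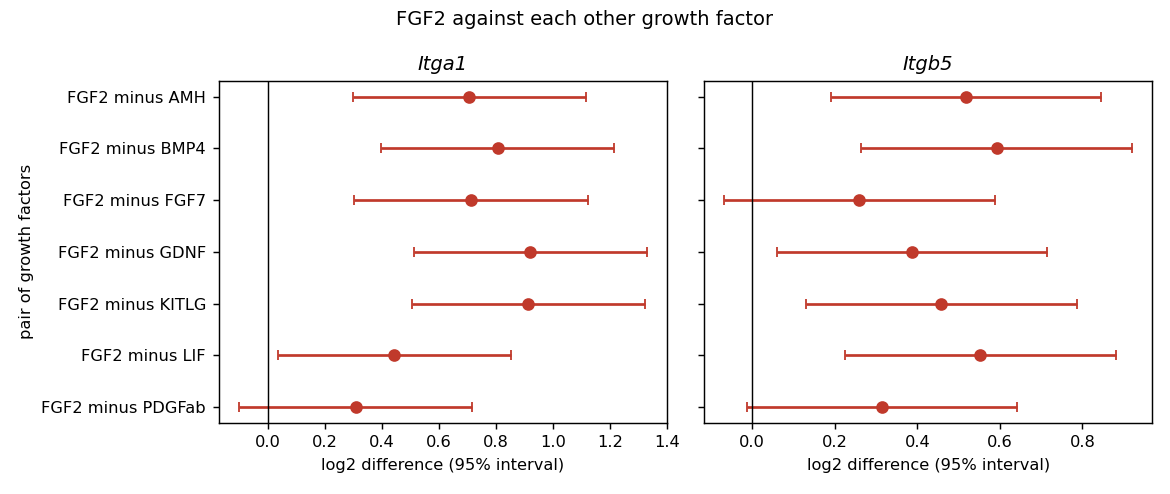
Log2 difference between FGF2 and each of the other 7 growth factors (horizontal axis, FGF2 minus the other) for Itga1 and Itgb5; points are limma estimates from the 38 arrays and bars their 95% intervals, not adjusted for the number of pairs. FGF2 minus GDNF for Itga1, 0.92, is the only difference with an adjusted p under 0.05.

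Several chain genes took the same place in sample 1 of 5 groups. Itga5, Itgb2, Itgb4 and Lama5 were highest, and Itga2 lowest, in sample 1 of FGF2, KITLG, LIF and PDGFab and in control 1, 5 of the 25 genes, where 7.77% of all probe sets were highest or lowest in all 5. Itga2 measured 6.59, 6.38, 6.92 and 7.23 in sample 1 of FGF2, KITLG, LIF and PDGFab and 6.22 in control 1, and the next control was at 7.10. Lama5 measured 8.77, 9.01, 8.75 and 8.30 in the same treated samples and 9.16 in control 1, and only control 9, at 8.93, came near it. The labels give no culture day, and these samples share nothing else that is stated than their number. What they share was not tested.

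**Figure D4:**
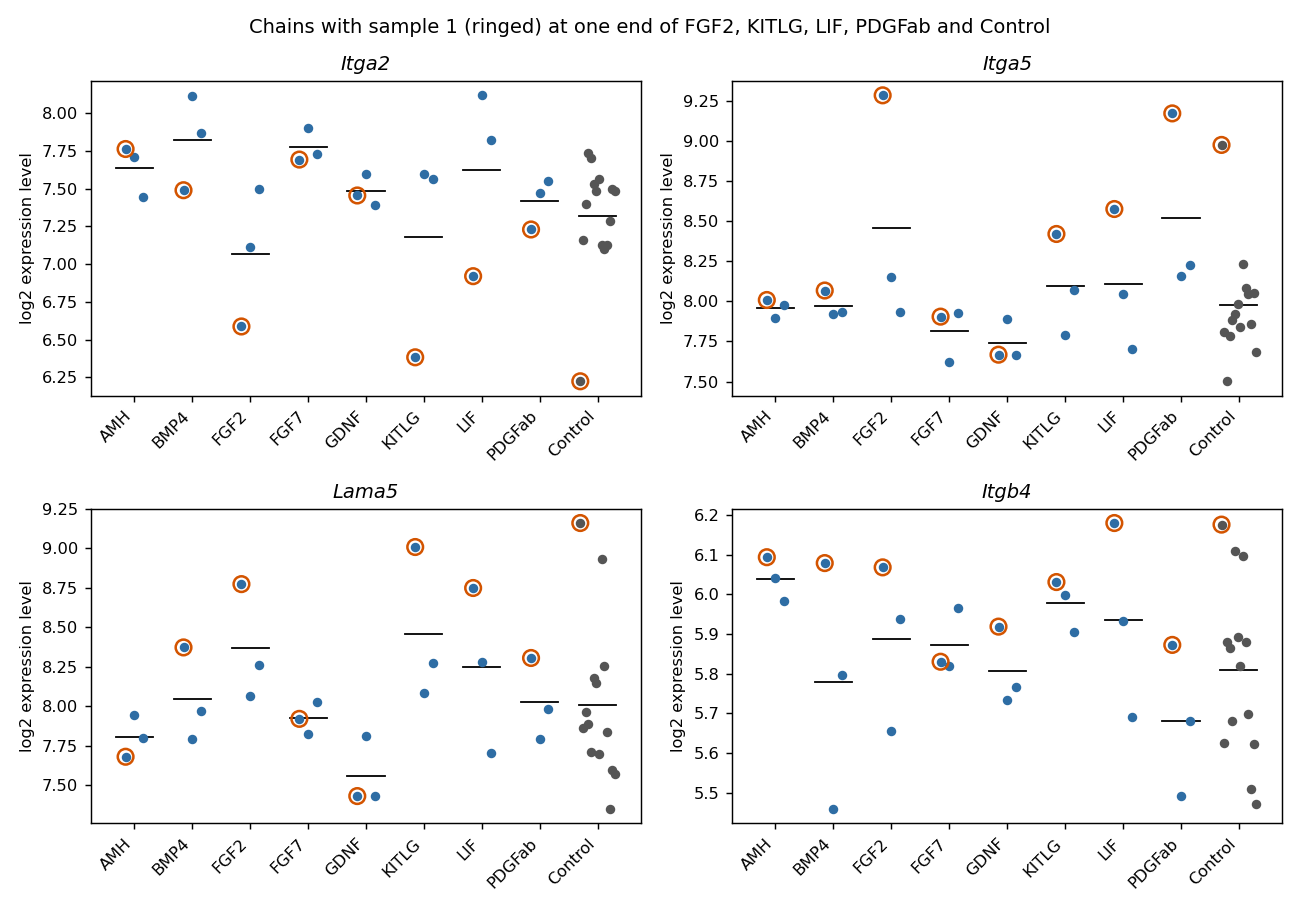
Log2 expression level (vertical axis) of Itga2, Itga5, Lama5 and Itgb4 by group (horizontal axis), with blue points for treated samples, grey points for the 14 controls, a ring on sample 1 of each group and a bar at each mean. In FGF2, KITLG, LIF, PDGFab and Control the ringed point is the lowest for Itga2 (6.22 in control 1) and the highest for the other 3 genes.

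In the 14 controls the chain genes differed in how much they varied between wells. Itgb1 was among the steadiest, at 11.60 ± 0.10 (SD), over 11.44 to 11.82. Lamc1 varied by an SD of 0.19, Lamb2 by 0.22 and Itga1 by 0.17. The widest were Itgb8 (SD 0.55), Lama5 (0.51), Itgb2 (0.45) and Lamb3 (0.43). The narrowest was the dim Itgad (0.07).

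Chains that form 1 receptor or 1 laminin were compared with each other across the 14 controls, in 16 pairs with both genes measured (Pearson's r and Spearman's rho, permutation tests with 100000 resamples, Benjamini-Hochberg adjustment over the 16). Itgb2 and its partner Itgam, which together make the complement receptor of macrophages and neutrophils, varied together (r = 0.866, adjusted permutation p = 0.0122; rho = 0.754, 0.0403). Without controls 1 and 10, the 2 farthest from the median of Itgb2, r was 0.62. Itgb2 and Itgal, the lymphocyte adhesion receptor, had r = 0.694 (adjusted permutation p = 0.0284) and rho = 0.631 (0.0943), with r = 0.602 without the same 2 controls.

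Itgb1 and Itga6, a laminin receptor, had r = 0.67 (adjusted permutation p = 0.0284) and rho = 0.701 (0.0531), and r = 0.687 without controls 8 and 9, the farthest from the median of Itgb1. With control 1 left out, a choice made after the data were seen, r was 0.833 for Itgb2 with Itgam (adjusted permutation p = 0.0454), 0.563 for Itgb2 with Itgal (0.143) and 0.667 for Itgb1 with Itga6 (0.0568). The other 13 pairs did not pass, Lamc1 with Lama1 at r = 0.563 (adjusted permutation p = 0.166) and Itgb1 with Itga1 at -0.19 (0.707) among them. The median r was 0.046 over the 16 pairs and 0.0117 over all 300 pairs of chain genes, which ran from -0.823 to 0.872. The mean level of 11 macrophage and leukocyte marker genes ran from 6.69 to 8.21 in these controls, and its part in the Itgb2 pairs was not tested.

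**Figure D5:**
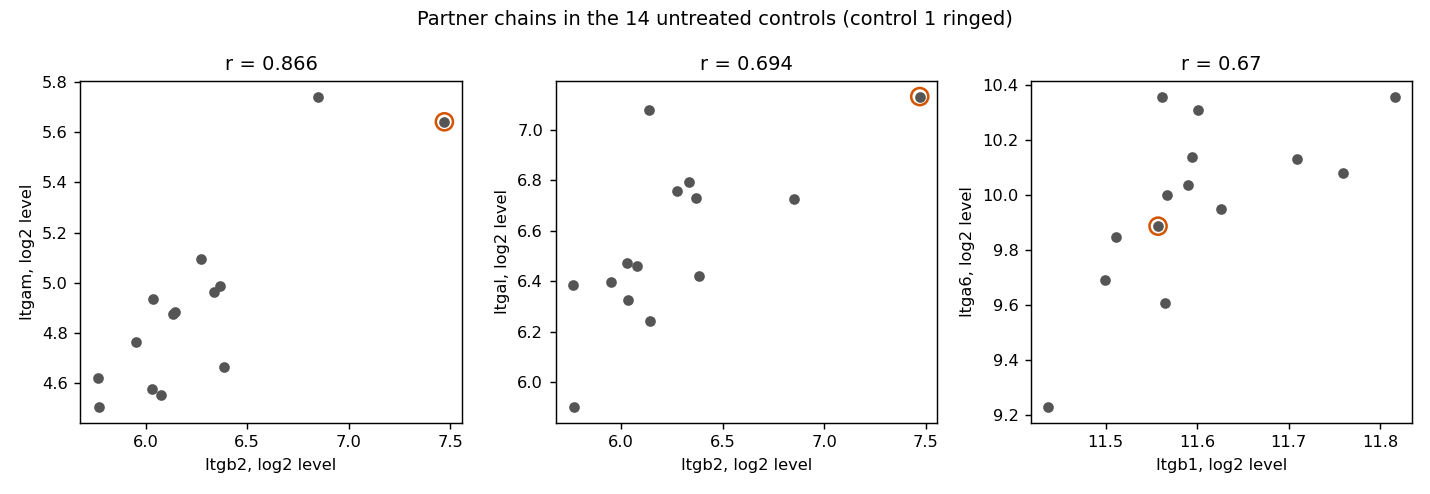
Log2 levels of Itgam and Itgal against Itgb2 and of Itga6 against Itgb1, 1 point for each of the 14 untreated controls of the first set, with control 1 ringed; the title of each panel gives Pearson's r (0.866, 0.694 and 0.67). Control 1 holds the highest Itgb2 level, 7.47.

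The genes around the integrins and laminins were described with FGF2 for comparison. Of 23 adaptors and kinases of focal adhesions, the sites where integrins meet actin, 21 were measured and 0 were called, while 2 met the study's criteria as higher, Actn4 (0.32) and Tns1 (0.44). The list's median change was 0.15. Its mean level was 8.84, 8.28 and 8.28 in FGF2 samples 1, 2 and 3, against a mean of 8.32 in the controls. Only sample 1 was above that mean. Of 15 other basement membrane genes 7 were measured and 0 called, with Nid2, which links laminin to collagen IV, at 0.36 (limma adjusted p = 0.294). Of 8 other laminin receptors 5 were measured and 0 called, and of 17 other integrin ligands 12 were measured and 0 called, with Mfge8, a secreted ligand of alphav integrins, at 0.44 (0.103). In the other 8 comparisons too, 0 genes of these 4 lists were called.

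Some markers of stromal and surface cells also differed with FGF2. Among 7 stromal markers, Pdgfrb, a receptor of mesenchymal cells, rose by 0.59 (9.93 ± 0.17 with FGF2, 9.35 ± 0.28 in controls, limma adjusted p = 0.0427), while Lum, a matrix proteoglycan, differed by -1.10 (0.0661). The list's mean level was 10.60 to 10.69 with FGF2, inside the 10.12 to 10.77 of the controls. Among 5 measured surface epithelium markers, 3 were higher with FGF2 on average, and the list's median change was 0.11. Only Upk1b of these was called, and it rose by 1.24 (8.66 ± 0.64 with FGF2, 7.42 ± 0.49 in controls, limma adjusted p = 0.0260). The list's mean level was 8.08 to 8.87 with FGF2, against 7.74 to 8.95 in controls. The 4 measured smooth muscle markers averaged 7.35, 6.18 and 5.93 in FGF2 samples 1, 2 and 3, and 0 were called. The controls ran from 5.99 to 7.12 (mean 6.27), and only sample 1 was above them all. All 11 macrophage and leukocyte markers were higher with FGF2 on average, and 0 were called. Their mean level was 8.40, 7.76 and 7.58 in FGF2 samples 1, 2 and 3, against 6.69 to 8.21 in controls (mean 7.61). Only sample 1 was above every control, and sample 3 was below the control mean. The 4 measured oocyte markers were all lower with FGF2 on average (median change -0.36), 0 were called, and 1, Dppa3, met the study's criteria. Their mean level was 8.12, 10.09 and 9.70 in the FGF2 samples, against 8.68 to 10.05 in controls, with sample 1 below every control. The part of these cells in the levels of Itga1 and Itgb5 was not tested.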

How the data were processed

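The deposited values are log2 expression levels, which the authors made from Affymetrix Rat Gene 1.0 ST scans in Partek Genomic Suite 6.3 by RMA adjusted for GC content, with the 38 arrays of the first set and the 6 arrays of the CTGF set preprocessed apart. RMA makes the arrays of a set alike in distribution, so only relative differences are measured. Values were used as deposited, every column was mapped to a sample by its label, and 0 columns were left unmapped. The files hold no background calls, no depth applies, and the number of arrays sets the precision.

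Symbols came from the platform annotation, which gave a single one to 15097 of 27342 probe sets, and all 25 chain genes kept theirs in RefSeq. Differences from the set's own controls were fitted in R 4.3.3 with limma 3.58.1 (lmFit, then eBayes), the first set in 1 fit, and the threshold was a Benjamini-Hochberg adjusted p of 0.05 taken over all probe sets. The study's criteria were applied to the unadjusted limma p. The exact two-sided permutation tests, the correlations (100000 resamples) and the promoter searches were run in Python 3.11.15 with scipy 1.17.1. Intervals are at 95%, and the spread given is the SD.

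The text names every chain gene past the adjusted threshold and, in each comparison, those that met the study's criteria. Others are named by level, range or count within their role, and members of the other lists where they passed. Values of chain genes outside this rule, such as Lamb2 with CTGF, Itgb7 and Itgb8 with GDNF and Lama5, and of the list genes that only met the criteria, were chosen after they were seen. The chain genes and lists were chosen with earlier results of these data known, and the study had tabulated some of these genes from the same arrays. The lists whose called genes are not counted in the text (pregranulosa, endothelial, T cell, mast cell, platelet and Schwann cell markers) had 0 genes called with FGF2.

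Samples are labelled as biological replicates. The study's text gives GDNF fewer replicates than the labels, whose 3 samples were all used, and what the extra one is was not settled. Whether replicate numbers pair treated samples with controls was checked from deviations from the group means. In the CTGF set all 3 same-numbered pairs correlated (r = 0.623 to 0.842), and a limma fit with the number as a block changed no call there. In the first set 7 of 24 did so above 0.1 (-0.555 to 0.74), so the numbers were not taken as pairs. In 3 of the 24 the same-numbered control was the closest of all controls. These were sample 1 of FGF2 (r = 0.74), LIF (0.694) and KITLG (0.615), each with control 1. Sample 1 of PDGFab was at 0.34 with control 1 and at 0.357 with control 2, its closest. The highest correlation of a treated sample with a control in the first set was AMH sample 1 with control 2 (0.779). The fitting steps were tested on simulated data with known changes. Alternatives were quantile normalization, leaving out the dimmest 20% of probe sets, the methods' t-test, the block, another variance model, a fit per growth factor, controls 12 to 14 left out and each replicate left out in turn. Leaving out control 1, alone or with sample 1 of FGF2, KITLG, LIF and PDGFab, was added after seeing the data.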

Additional observations from a re-analysis of the deposited data

Results flagged for a closer look

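The direct difference of Itga1 between FGF2 and GDNF stood out as the only one of the 28 pairs of growth factors and 25 chain genes that passed. Itga1 was higher with FGF2 (9.42, 8.39 and 8.37) than with GDNF (7.69, 7.87 and 7.87) by 0.92 on the log2 scale (limma, adjusted p = 0.0117 over all probe sets of that contrast, of which 856 or 3.13% were called). Without FGF2 sample 1 it was 0.57 (adjusted p = 0.128). No group of the series has between 4 and 10 samples, so no single sample was tested as standing apart from its group.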

How the results depend on the processing

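With 3 samples per growth factor, 1 sample can decide a call. The FGF2 calls of Itga1 and Itgb5 (2 chain genes) became 0 under the methods' t-test, 1 with the replicate block (Itgb5, while Itga1 was at 0.71 with limma adjusted p = 0.132), 1 in a fit of FGF2 and the controls alone (Itga1) and 1 without control 1 and sample 1 of FGF2, KITLG, LIF and PDGFab (Itga1, where the study's criteria were met by 2 in place of 4). Itga11 was called with FGF2 under quantile normalization (adjusted p = 0.0389) and, at 0.70 (0.00997), without FGF2 sample 3. The blocked fit uses only controls 1 to 3 in the first set, where the numbers were not taken as pairs. Under it the study's criteria were met by 5 chain genes with AMH (6.24% of all probe sets), 4 with BMP4 (9.21%), 5 with FGF2 (9.35%), 6 with FGF7 (12.1%), 6 with GDNF (14.3%) and 3 with KITLG (7.12%). These shares too were above those without the block, and 1 chain gene was called for GDNF (Itgb8, with 6.31% of all probe sets). The block changed no other call, and FGF2 had 125 probe sets called under it in place of 257. Without controls 12 to 14, GDNF had 1 chain gene called (Itgb7) and 2 at the criteria, where 11.5% of all probe sets were called and 10.4% met the criteria.

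At the study's criteria, CTGF had 0 in place of 1 under quantile normalization, the dim filter, the t-test and the other variance model. KITLG had 0 in place of 1 under the t-test, the fit alone, without controls 12 to 14 and without the 5 samples, and 2 without control 1. LIF had 1 in place of 2 under the t-test and the fit alone. FGF2 had 3 in place of 4 under quantile normalization, the t-test, the fit alone and without controls 12 to 14. FGF7 had 1 in place of 2 without control 1 and 3 in the fit alone. PDGFab had 3 in place of 2 without controls 12 to 14. Leaving out 1 replicate at a time gave 0 to 2 chain genes called with FGF2, and at the criteria 0 to 1 with AMH, 0 to 1 with BMP4, 0 to 2 with CTGF, 2 to 6 with FGF2, 0 to 2 with FGF7, 0 throughout with GDNF, 0 to 1 with KITLG, 0 to 2 with LIF and 0 to 2 with PDGFab.

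The direct difference of Itga1 between FGF2 and PDGFab ran from -0.041 without FGF2 sample 1 to 0.49 without FGF2 sample 3. PDGFab sample 1, at 9.01, was kept in each. With sample 1 left out of each treatment, Itga1 was 0.50 above the controls with FGF2 and 0.25 with PDGFab. That between FGF2 and KITLG passed without FGF2 sample 2 (1.08, limma adjusted p = 0.0246) or sample 3 (1.09, 0.0232), and both of these fits keep FGF2 sample 1. Without sample 1, Itga1 with FGF2 was 0.50 above the controls, beside -0.06 with KITLG with all its samples. The correlation of Itgb2 with Itgal had an adjusted permutation p of 0.0507 under quantile normalization, and that of Itgb1 with Itga6 of 0.0609 without controls 12 to 14. Over all alternatives, 25 counts of chain genes moved and 129 did not where no single replicate was left out, and 14 moved and 46 did not where one was. Choosing another probe set per gene was not run, because each gene has 1, and the fit alone and the removal of controls 12 to 14 do not apply to CTGF.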
